A study of Mus musculus with 12 samples.

Results

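The genes described here are Trp53, which encodes the transcription factor p53, and 31 genes known as its targets or partners in the same response, in mouse cells with and without a labelled loss of EED. They were found by symbol in a table of 21253 genes, and all 32 were present. The set was proposed from values of the comparison of EED-/- against WT in anterior neural progenitors, in which Trp53, Cdkn1a and Ccng1 were lower. That comparison is therefore given as a description, and so are the members' values in each comparison that uses the same progenitor libraries. The members were tested on libraries of the stem cells the progenitors were made from. They were chosen with earlier results of these data known. Which values chose the members other than Trp53, Cdkn1a and Ccng1 is not stated. The stem cell test is therefore not known to be independent of the choice. By the roles used here, 2 members are p53 and its feedback regulator, 9 act in cell cycle arrest and growth control, 10 in apoptosis, 4 in DNA repair and nucleotide supply, and 7 in stress and metabolism.

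Polyadenylated RNA was sequenced from 12 libraries in 4 groups. The mESC groups, with 2 libraries each, are undifferentiated mouse embryonic stem cells kept on gelatin in serum and LIF, the cytokine that holds such cells in the pluripotent state. They are the E14 line, labelled WT, and a line labelled EED-/- that, per the labels, came from an earlier study. The AntNPC groups, with 4 libraries each, are anterior neural progenitors made from both lines over 5 days in N2B27 without serum; the medium held 10 ng/ml bFGF at first and Xav939, an inhibitor of WNT signalling, at 5 uM later. EED belongs to the core of PRC2, which keeps genes silent by methylating histone H3 at lysine 27. Each genotype is 1 line, so the genotype cannot be told apart from other differences between the lines. The labels do not say whether replicates were separate cultures, so p-values reflect only how far these samples vary, and that variation may be technical.

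In unstressed cells p53 is made and rapidly destroyed, because MDM2, itself a p53 target, marks it for degradation. DNA damage and other stresses stabilise p53, which then binds pairs of a short DNA element and raises genes that halt the cell cycle (Cdkn1a), trigger apoptosis (Bbc3, Pmaip1, Bax), repair DNA (Ddb2, Xpc) or restrain metabolism (Sesn1, Sesn2). The INK4A/ARF locus Cdkn2a, a classical PRC2 target, encodes ARF, which inhibits MDM2. Mouse embryonic stem cells are known for a high level of p53 protein.

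RefSeq promoters (build GRCm38.p6, from 250 bases before to 50 after the start site) were searched on both strands for the p53 half-site consensus, a degenerate element of 10 bases. Of the 32 members, 24 had a promoter entry (75%), too few for a share over the set, which is therefore void. The half-site was present in 8.36% of all 32851 promoters, and 2 half-sites at most 13 bases apart in 0.0731%. Counted by gene, over any of its start sites, the half-site was present in 9.55% of all genes. Of the 24 members, 11 held a half-site in any of their promoters. Among the 13 that did not were Bbc3, Eda2r, Sesn2, Gdf15, Dcxr and Ak1, which says only that these letters are not in the window. The promoters of Cdkn1a, Ccng1, Mdm2 and Aen are shown, picked among the 11 with a match because these genes stand for arrest, feedback and apoptosis in what follows. Capitals mark the matches, and each sequence reads 5′ to 3′ on the strand of its gene. Cdkn1a, chr17:29090729-29091028 on the plus strand, held a pair, GGACTAGCTT starting 73 bases and GAACATGTCT starting 51 bases before the start site. Ccng1, chr11:40755237-40755536 on the minus strand, held GGGCAAGCCT 185 bases before its start. Mdm2, chr10:117710709-117711008 on the minus strand, held GAACTTGCCT 186 bases before its start. Aen, chr7:78895808-78896107 on the plus strand, held GGGCTTGTCC 121 bases before its start. Cdkn1a and Aen each had another promoter entry, for another start site. That of Cdkn1a, chr17:29093519-29093818, held no half-site. In that of Aen, chr7:78895677-78895976, the same match started 10 bases after the start site. A match describes the letters of this window and is no evidence of binding.
Cdkn1a: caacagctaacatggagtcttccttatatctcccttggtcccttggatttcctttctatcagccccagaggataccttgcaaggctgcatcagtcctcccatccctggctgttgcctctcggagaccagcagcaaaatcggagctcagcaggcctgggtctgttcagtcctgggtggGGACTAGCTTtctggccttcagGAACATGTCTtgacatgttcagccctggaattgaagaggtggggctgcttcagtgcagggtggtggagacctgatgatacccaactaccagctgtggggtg
Ccng1: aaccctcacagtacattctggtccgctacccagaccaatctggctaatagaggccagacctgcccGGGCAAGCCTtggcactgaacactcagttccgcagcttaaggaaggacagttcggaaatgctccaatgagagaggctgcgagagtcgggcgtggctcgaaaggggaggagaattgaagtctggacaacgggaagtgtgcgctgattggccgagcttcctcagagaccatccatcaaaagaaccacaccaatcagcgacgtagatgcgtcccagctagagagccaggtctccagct
Mdm2: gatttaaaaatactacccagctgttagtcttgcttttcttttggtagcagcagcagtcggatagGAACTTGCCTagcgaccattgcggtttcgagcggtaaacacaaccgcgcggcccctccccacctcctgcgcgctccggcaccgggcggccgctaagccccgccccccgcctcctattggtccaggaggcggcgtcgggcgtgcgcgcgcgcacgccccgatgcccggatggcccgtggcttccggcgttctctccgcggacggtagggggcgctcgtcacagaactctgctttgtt
Aen: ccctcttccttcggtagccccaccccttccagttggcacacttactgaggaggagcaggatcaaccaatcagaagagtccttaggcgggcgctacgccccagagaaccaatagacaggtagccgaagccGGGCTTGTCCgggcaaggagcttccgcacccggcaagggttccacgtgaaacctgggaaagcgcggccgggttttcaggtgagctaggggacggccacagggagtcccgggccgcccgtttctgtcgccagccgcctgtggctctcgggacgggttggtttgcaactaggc

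Libraries and labels were checked before the members were compared. Eed itself went against its label: its FPKM (fragments scaled to transcript length and library size) was 66.2 and 163 in WT mESC and 644 and 376 in the mESC labelled EED-/-, and it was also higher in AntNPC labelled EED-/-. Eed had a mean read count in the authors' deposited table of 3723.13 in WT AntNPC and 2495.77 in those labelled EED-/-, so directions below rest on the labels. The sum of FPKM ran from 453550 to 864235. The libraries WT mESC 1, EED-/- mESC 2 and replicate 1 of both AntNPC groups, had the 4 lowest sums and the 4 lowest shares of ribosomal protein genes (10.6% to 16.1%, against 18.6% to 32.5% in the others). Steps between low FPKM values put the depth at about 31500000 to 51200000 fragments a library, an estimate, since no counts per library were used here. Of the 32 members, 28 were at 1 FPKM or more in all 12 libraries. Fas, the death receptor, lay between 0.127 and 1.43 FPKM, reached 1 FPKM in 1 library only and was not tested, which leaves 31 members tested among 13678 genes.

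**Figure D1:**
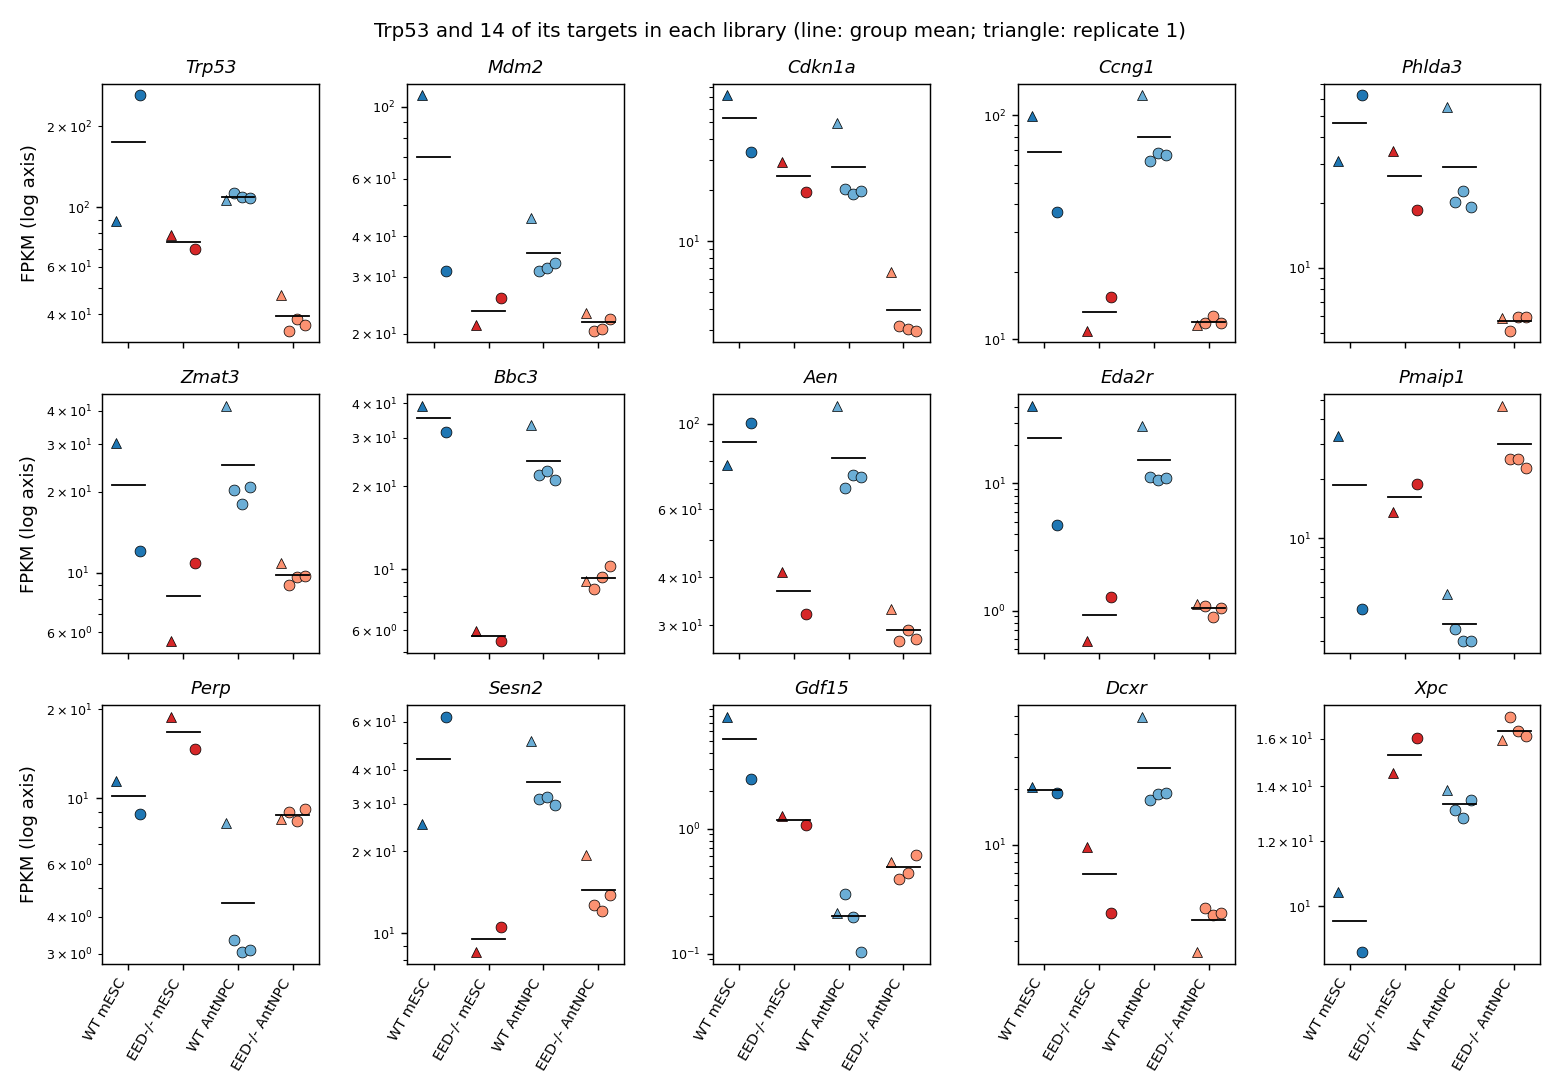
FPKM (log axis) of Trp53 and 14 target genes in each of the 12 libraries, grouped by cell type and labelled genotype; lines are group means and triangles are replicate 1. Bbc3 and Aen are lower in all libraries labelled EED-/- than in every WT library of the same cell type, while Pmaip1 and Perp are higher in AntNPC labelled EED-/-.

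In mESC, genes of every role but DNA repair fell in the line labelled EED-/-. Of the 4 DNA repair and nucleotide genes, 3 were negative without passing. By limma on log2(FPKM + 1), at an adjusted p under 0.05, 9 of the 31 members fell and 1 rose. Of all genes tested, 2.73% fell and 20.0% rose. Members that fell came from feedback (Mdm2), growth control (Ccng1), apoptosis (Bbc3, Aen, Eda2r) and stress and metabolism (Sesn2, Gdf15, Dcxr, Ak1), and the 1 that rose was the DNA damage sensor Xpc. The median log2 change was -1.02 over the members and 0.29 over all genes, and 23 of 31 members were negative (29.5% of all genes). Levels did not overlap between genotypes for 15 members that were lower (6.91% of all genes) and 4 that were higher (33.2% of all genes). With 2 libraries a group, these calls borrow the spread of the AntNPC libraries: fitted on the mESC libraries alone, limma called 0 members.

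Trp53 (chromosome 11, 69580359 to 69591873, GRCm38) had 88.8 and 261 FPKM in the WT mESC libraries and 78.6 and 70.2 FPKM in those labelled EED-/-. The groups did not overlap, but the WT libraries lay far apart, and the log2 change of -1.03 ± 0.37 (SE; limma, adjusted p = 0.0710) did not pass. That change rested on the WT library used: without WT mESC 1 it was -1.80, and without WT mESC 2 it was -0.25. It also depended on scaling, since Trp53 fell past the threshold under quantile normalization and under median-of-ratios scaling. Mdm2, the ubiquitin ligase that destroys p53, stood at 108 and 31.3 FPKM in WT and at 21.3 and 25.7 in the libraries labelled EED-/-. It fell by 1.28 ± 0.42 on the log2 scale, at an adjusted p of 0.049999 (limma) that lies just under the threshold. Leaving out any 1 library other than WT mESC 2 ended that call, and without WT mESC 1 the log2 change of Mdm2 was -0.40 (limma, adjusted p = 0.181). The call was kept in 5 of 19 alternative settings. The 81 tested genes within 1000000 bases of Trp53 had a median log2 change of 0.18, with 18 rising and 3 falling.

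Among arrest and growth control genes, 1 of 9 fell. Ccng1, cyclin G1, which recruits a phosphatase to MDM2, read 99.7 and 37.1 FPKM in WT mESC and 10.9 and 15.5 in those labelled EED-/-. Both WT libraries exceeded both others, and the mean was 5.18-fold lower (log2 change -2.14 ± 0.41; limma, adjusted p = 0.00353). Cdkn1a, the CDK inhibitor p21, read 71.6 and 33.6 in WT and 29.0 and 19.3 in the line labelled EED-/-. Its groups did not overlap either, but its log2 change of -1.02 ± 0.51 did not pass (limma, adjusted p = 0.186). Zmat3, an RNA-binding tumour suppressor, had a log2 change of -1.20 ± 0.45 (limma, adjusted p = 0.0846). Trp53inp1, a cofactor of p53 in stress, read 101 and 6.71 in WT and 1.80 and 7.83 in the line labelled EED-/-, so its groups overlapped and its change of -2.49 ± 0.94 did not pass (limma, adjusted p = 0.0826). Values for Phlda3, an AKT inhibitor, Btg2 and Plk2 overlapped between genotypes, with log2 changes of -0.78, 0.11 and 0.04. Pml and Fbxw7, a nuclear body protein and a ubiquitin ligase subunit, were the 2 growth control genes whose levels lay wholly above WT, at 0.36 and 0.57, and neither passed. The other tested genes of chromosome 3, which carries Fbxw7 and Zmat3, had a median of 0.63.

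Apoptosis genes held 3 of the falls, out of 9 tested. Bbc3, which encodes the BH3-only protein PUMA, read 39.1 and 31.5 FPKM in WT mESC and 5.95 and 5.48 in those labelled EED-/-. The replicates lay close together, and the 6.18-fold lower mean (log2 change -2.43 ± 0.22; limma, adjusted p = 2.75e-05) was the smallest p among the members. Aen, a p53-induced nuclease, read 78.4 and 101 in WT and 41.3 and 32.2 in the others, a log2 change of -1.26 ± 0.24 (limma, adjusted p = 0.00341). Eda2r, a TNF receptor family member on the X chromosome, read 40.4 and 4.73 in WT and 0.58 and 1.28 in the line labelled EED-/-. It passed with -3.02 ± 0.72 (limma, adjusted p = 0.0118), but not without EED-/- mESC 1 (-2.75, limma adjusted p = 0.0551). Bax, the pore-forming effector, ranged so widely (148 and 496 FPKM in WT, 241 and 108 in the line labelled EED-/-) that its groups overlapped (-0.75 ± 0.47; limma, adjusted p = 0.308). Pmaip1, which encodes the BH3-only protein NOXA, read 32.9 and 4.39 in WT and 13.5 and 18.7 in the others, with the groups overlapping. Perp, a desmosomal membrane protein, lay above WT in both libraries, at 18.9 and 14.7 FPKM against 11.5 and 8.86, and its log2 change of 0.67 ± 0.36 did not pass (limma, adjusted p = 0.217). Ei24 (-0.51), Tnfrsf10b (-0.23) and Rps27l (-0.80) did not pass either; Rps27l is close in sequence to Rps27, so its reads are uncertain.

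Of 4 repair and nucleotide genes, Xpc alone passed and it rose. Xpc, the sensor that starts nucleotide excision repair, read 10.4 and 8.80 FPKM in WT mESC and 14.5 and 16.0 in those labelled EED-/-, a log2 change of 0.62 ± 0.15 (limma, adjusted p = 0.0126). The other tested genes of its chromosome, 6, had a median of 0.77, and under quantile normalization Xpc stood at 0.27 (limma, adjusted p = 0.221). Ddb2, its partner in damage recognition, was -0.69 ± 0.27 without passing (limma, adjusted p = 0.0929); it overlaps Acp2 on the other strand, and the sources used here do not give the strand of counting. Polk, a bypass polymerase, and Rrm2b, the p53-inducible ribonucleotide reductase subunit, overlapped between genotypes, with log2 changes of -1.20 and -0.17. Under quantile normalization Ddb2 and Polk fell past the threshold, and under median-of-ratios scaling Ddb2 did.

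Stress and metabolism genes held 4 falls of 7. Sesn2, a sestrin that restrains mTORC1, read 25.2 and 62.6 FPKM in WT mESC and 8.55 and 10.5 in those labelled EED-/-, a log2 change of -1.96 ± 0.39 (limma, adjusted p = 0.00433). Its relative Sesn1 went the other way without passing (0.62 ± 0.38; limma, adjusted p = 0.298), and its groups overlapped. Gdf15, a secreted stress cytokine, read 7.87 and 2.49 in WT and 1.27 and 1.07 in the line labelled EED-/- (-1.36 ± 0.32; limma, adjusted p = 0.0106). The other tested genes of its chromosome, 8, had a median of 0.67. Ak1, adenylate kinase, read 49.1 and 38.9 in WT and 15.6 and 13.7 in the others (-1.51 ± 0.35; limma, adjusted p = 0.0104). Without EED-/- mESC 2 neither passed, at -1.29 (limma, adjusted p = 0.0548) for Gdf15 and -1.43 (limma, adjusted p = 0.0539) for Ak1. Dcxr, a carbonyl reductase, read 20.4 and 18.9 in WT and 9.67 and 4.24 in the others (-1.47 ± 0.47; limma, adjusted p = 0.0452), a call kept in 5 of 19 alternative settings. Leaving out any 1 library other than EED-/- mESC 1 or WT AntNPC 1 ended the call of Dcxr, and without EED-/- mESC 2 it was -0.95 (limma, adjusted p = 0.259). Ddit4, an inhibitor of mTORC1, spread from 14.7 to 164 FPKM within WT, and Ephx1, an epoxide hydrolase, from 4.97 to 22.5; neither passed. Of the 10 members called, 4 (Bbc3, Aen, Ccng1 and Sesn2) kept the call in all alternatives but the fit on mESC libraries alone.

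The WT mESC replicates differed strongly, in the members and over all genes. The higher WT library exceeded the lower by a median of 2.53-fold over the 31 members, and by more than 2-fold in 22 of them; over all genes tested the median was 1.94-fold, and 48% exceeded 2-fold. In the mESC labelled EED-/- the median was 1.32-fold over the members and 1.57-fold over all genes, and 6 members exceeded 2-fold (30.5% of all genes). WT mESC 1 held the higher value for Mdm2, Cdkn1a, Ccng1, Eda2r, Trp53inp1 and Ddit4, whereas WT mESC 2 held it for Trp53, Bax, Rps27l, Phlda3 and Sesn2. WT mESC 2 and EED-/- mESC 1 also had high levels of short transcripts (under 1500 bases, median 0.48 and 0.78 above the mean of all libraries on the log2 scale) and low levels of long ones (over 5000 bases, -0.89 and -0.56). The part of this in the members' values was not tested. Paired by sum of FPKM, a pairing made after the values were seen, the members' median was -1.18 for the low pair (0.28 for all genes). In that pair 26 of 31 were lower (34.0% of all genes). For the high pair the median was -0.37 (0.27 for all genes), with 21 of 31 lower (30.1% of all genes). Bbc3 stood at -2.63 and -2.23 and Aen at -1.26 in both pairs, while Mdm2 was -2.03 and -0.53 and Trp53 -0.33 and -1.72. Paired by replicate number, the members' median was -1.23 for number 1, with 24 of 31 lower (41.2% of all genes). For number 2 it was -0.30, with 18 of 31 lower (30.7% of all genes). By number, Bbc3 stood at -2.53 and -2.33, Aen at -0.91 and -1.62, Mdm2 at -2.30 and -0.27 and Trp53 at -0.17 and -1.88.

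**Figure D2:**
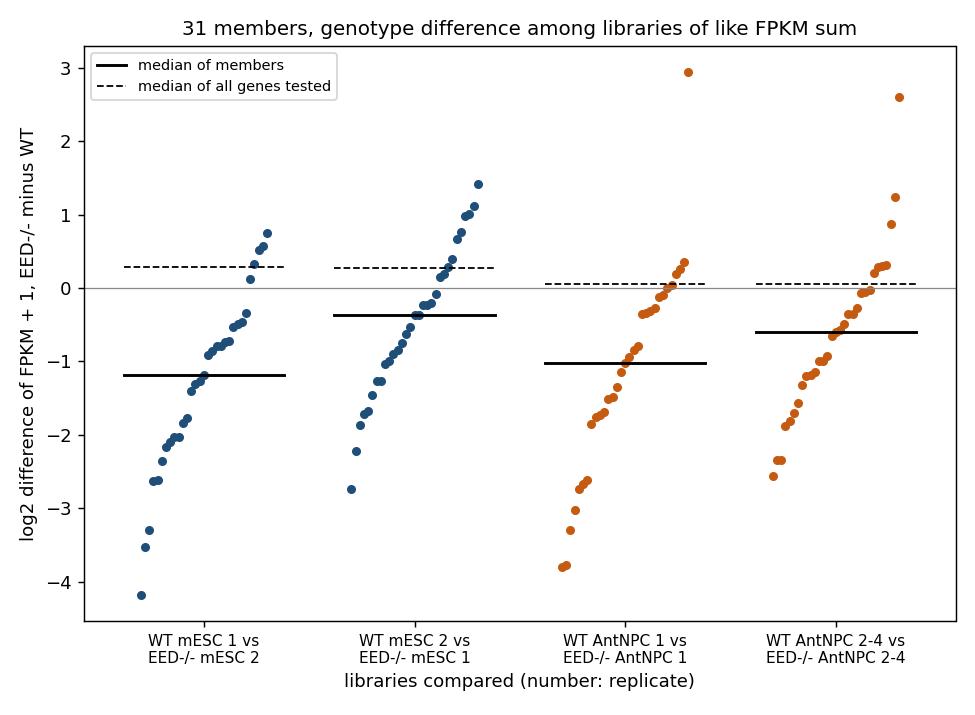
Difference of log2(FPKM + 1) between libraries labelled EED-/- and WT for the 31 members tested, among libraries of like FPKM sum: 1 against 1 in the first 3 columns and 3 against 3 in the last. Solid lines mark the members' medians (-1.18, -0.37, -1.01 and -0.59), all below the dashed medians of all genes (0.28, 0.27, 0.06 and 0.05).

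Genes of other cell types differed between the same mESC groups. Summed over 8 markers each, trophoblast genes ran from 18.8 to 34.5 FPKM in WT and 135 to 225 in those labelled EED-/-, with 5 and 0 of 8 below 1 FPKM throughout. Endoderm genes ran from 6.21 to 13 and 213 to 257 FPKM, with 6 and 0 of 8 below 1 FPKM, and fibroblast and smooth muscle genes from 12.8 to 15.7 and 185 to 203, with 5 and 0 of 8. In mESC labelled EED-/-, Hand1 led the trophoblast sum (169 and 75.2 FPKM) and Col4a1 the endoderm sum (166 and 212). Tagln led the fibroblast and smooth muscle sum there (103 and 103). Of the trophoblast genes, Ascl2 and Tfap2c overlapped between genotypes. Pluripotency genes overlapped, at 2870 to 9559 FPKM in WT and 2492 to 6963. None of these markers was at 0 in every library. The sum of 7 postmitotic neuron genes, led by Stmn2, went the other way, at 134 to 304 FPKM in WT and 74.4 to 92.4 in those labelled EED-/-. Neural progenitor (13.2 to 19.6 and 27.0 to 39.9) and mesoderm sums (0.95 to 2.15 and 5.88 to 6.07) were higher in those labelled EED-/-. In such bulk RNA, fewer cells of a type and less RNA per cell cannot be told apart, and the part of other cells in the members' changes was not tested.

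In AntNPC, the comparison behind the choice of the set, most members were lower in the libraries labelled EED-/-. Of 31 members 13 were lower and 2 higher past the limma threshold, which 7.75% and 18.3% of all genes passed. That count was fixed in part by the choice of the set. Trp53 read 106, 113, 110 and 109 FPKM in WT AntNPC and 47.4, 34.8, 38.3 and 36.6 in those labelled EED-/-, so that every WT library lay above 100 and every other below 50. Cdkn1a read 49.6, 20.2, 18.9 and 19.7 in WT and 6.59, 3.18, 3.04 and 2.99 in the others. Ccng1 read 123, 62.5, 67.7 and 66.3 in WT and 11.6, 11.8, 12.6 and 11.9 in the others. The WT mean was 2.78-fold higher for Trp53, 6.86-fold for Cdkn1a and 6.67-fold for Ccng1. In all 3 genes the groups were well apart, and replicate 1 of WT stood high for the 2 targets but not for Trp53 itself.

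The other members showed both directions in AntNPC. Ranges did not overlap for 20 members that were lower and 4 that were higher, against 19.1% and 30.4% of all genes. Eda2r was 14.6-fold lower in the libraries labelled EED-/-, Dcxr 6.74-fold, Phlda3 5.11-fold, Trp53inp1 4.77-fold, Ak1 3.41-fold, Aen 2.79-fold, Bbc3 2.66-fold and Sesn2 2.48-fold. Mdm2, at 35.4 ± 6.67 FPKM in WT and 21.7 ± 1.31 in those labelled EED-/- (SD, n = 4), was 1.63-fold lower. Pmaip1 and Perp, both apoptosis genes, were higher. Pmaip1 read 5.18, 3.44, 3.0 and 3.02 FPKM in WT and 46.6, 25.1, 25.1 and 22.7 in the others, an 8.15-fold higher mean. Perp was 1.98-fold higher, at 4.43 ± 2.56 and 8.78 ± 0.392 FPKM (SD, n = 4). In replicate 1 Perp stood at 8.26 FPKM in WT and 8.51 in the line labelled EED-/-, a log2 difference of 0.04, against 1.25 for replicates 2 to 4. Bax read 155 ± 4.99 and 80.3 ± 5.46 FPKM, and Xpc 13.3 ± 0.453 and 16.4 ± 0.470 (SD, n = 4 each). The other tested genes of chromosome 6, which carries Xpc, had a median log2 change of 0.56 in AntNPC. For all 32 members the authors' deposited table of mean read counts gave the same direction as the FPKM means. The 81 genes within 1000000 bases of Trp53 had a median log2 change of 0.00457. Of 14 tested genes within 100 kb, Efnb3 fell (-1.84 ± 0.35; limma, adjusted p = 0.00233) and Sox15 rose (1.01 ± 0.27; limma, adjusted p = 0.0157) in AntNPC, Cd68 fell in mESC (-1.73 ± 0.42; limma, adjusted p = 0.0119), and Wrap53, which starts beside Trp53 on the other strand, was -0.84 ± 0.34 in AntNPC without passing (limma, adjusted p = 0.0951).

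**Figure D3:**
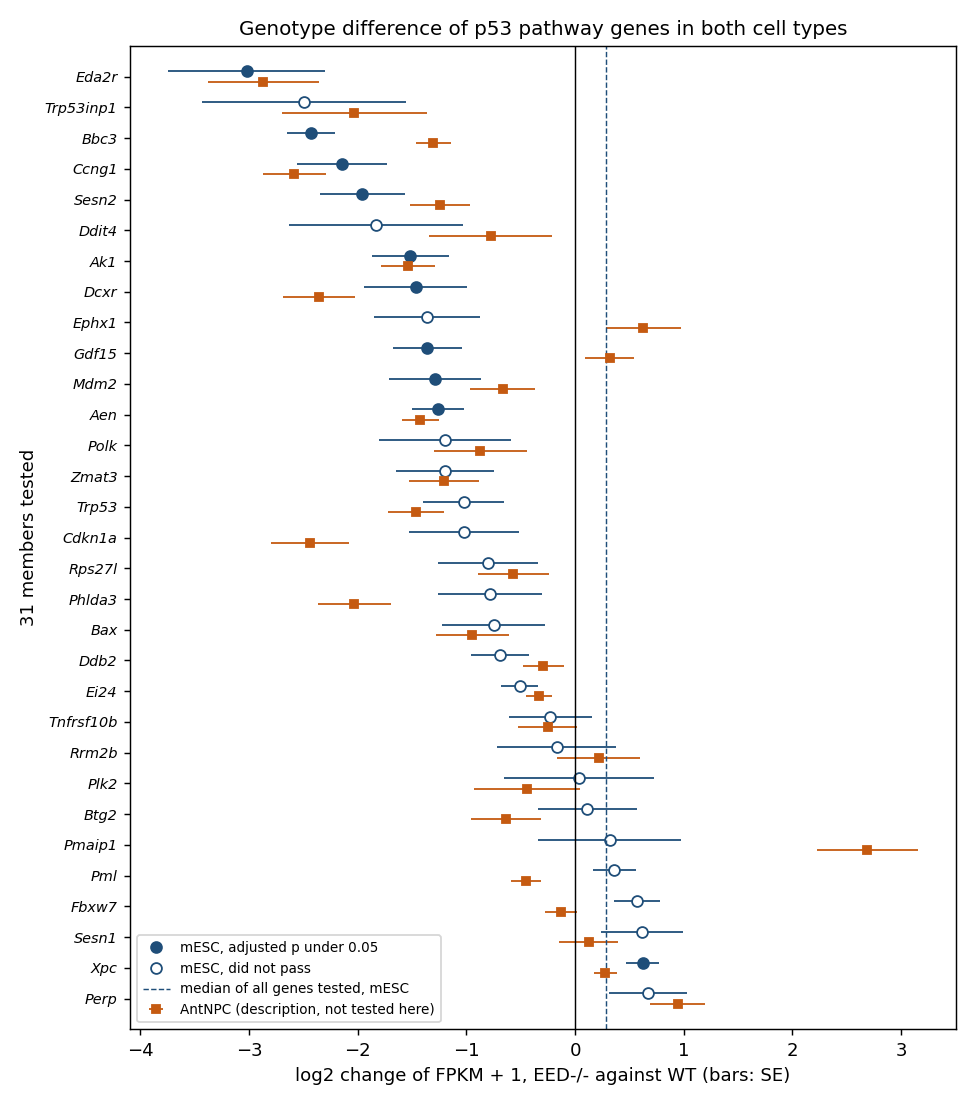
Log2 change of FPKM + 1 (EED-/- against WT by label, bars are SE) for 31 members in mESC (circles, filled where the adjusted p is under 0.05) and in AntNPC (squares, a description). Eda2r, Bbc3, Ccng1 and Sesn2 lie far to the left in both cell types, and the dashed line marks the median of all genes in mESC, 0.29.

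Side by side, 20 members were negative in both cell types (17.7% of all genes), 4 positive in both (43.3%) and 7 of opposite sign (39% of all genes). These comparisons share no library, though they share the model's spread, and one of them chose the set. Past the threshold in both were 7 that were lower (0.6% of all genes): Ccng1, Bbc3, Aen, Eda2r, Sesn2, Dcxr and Ak1. The difference between the 2 genotype effects includes the comparison behind the choice of the set and is given for the members as a description, with no p. It lay past the limma threshold for 3 positive members (3.98% of all genes) and 1 negative (11.3% of all genes), counts from which nothing is read. Bbc3 was less far below WT in AntNPC than in mESC, by 1.13 ± 0.27 on the log2 scale. Gdf15, at 1.68 ± 0.39, was lower in mESC labelled EED-/- and under 1 FPKM in all AntNPC, so it entered the fit through its mESC libraries only. Ephx1 stood at 1.99 ± 0.60, and at 1.01 without WT mESC 1. Pml, at -0.81 ± 0.24, had a positive value in mESC and a negative one in AntNPC. Pml, Bbc3 and Ephx1 no longer lay past the threshold when replicates were blocked, and leaving out EED-/- mESC 2 ended it for all 4.

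The differentiation of WT cells shares the WT AntNPC libraries with the comparison that chose the set, so its values too are a description. From mESC to AntNPC 8 of 31 members were lower and 2 higher past the limma threshold, against 18.1% and 30.1% of all genes, and the members' median log2 change was -0.47 (0.17 for all genes). Gdf15 went from 7.87 and 2.49 FPKM to between 0.10 and 0.30, a log2 change of -2.21 ± 0.28. Gdf15 reached 1 FPKM in mESC libraries only. Its lower place in AntNPC, here and in the line labelled EED-/-, was therefore fixed in part by the filter. Ephx1 went from 22.5 and 4.97 FPKM to between 0.90 and 1.80, a change of -2.42 ± 0.42. In both genes every AntNPC library lay below both mESC libraries. Of all 31 members, 5 were lower with no overlap (22.3% of all genes) and 2 higher (35.4% of all genes). Ei24, an endoplasmic reticulum protein of apoptosis and autophagy, had a log2 change of -0.79 ± 0.15 and Pml of -0.73 ± 0.17. Perp stood at -1.13 ± 0.31, Ak1 at -0.98 ± 0.31, Xpc at 0.44 ± 0.13 and Sesn1 at 0.95 ± 0.33. Sesn1 was at 0.26 without WT mESC 2. The value of Pmaip1, -1.56 ± 0.57, was -0.23 without WT mESC 1, and that of Bbc3, -0.51 ± 0.19, was -0.36 without it. Trp53 had a log2 change of -0.47 ± 0.32, Cdkn1a of -0.96 ± 0.44 and Ccng1 of 0.33 ± 0.36.

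In the line labelled EED-/-, whose AntNPC libraries also took part in the choice, 5 of 31 members were lower in AntNPC than in mESC and 1 higher past the limma threshold, against 16.7% and 14.4% of all genes. The members' median was -0.18 and that of all genes -0.01. Pml went from 31.7 and 40.6 FPKM to between 10.7 and 13.4, a log2 change of -1.53 ± 0.17. Phlda3 went from 34.4 and 18.4 FPKM to between 5.15 and 5.94, a change of -1.97 ± 0.42. Cdkn1a went from 29.0 and 19.3 FPKM to between 2.99 and 6.59, a mean 6.11-fold lower. In these 3 growth control genes the ranges were apart. Of all 31 members, 13 were lower with no overlap (27.7% of all genes) and 6 higher (27.5% of all genes). Ei24 stood at -0.61 ± 0.15 and Ak1 at -1.01 ± 0.31. Bbc3 went the other way, from 5.95 and 5.48 FPKM to between 8.48 and 10.2, a log2 change of 0.61 ± 0.19. The pluripotency marker sum ran from 33.7 to 66.2 FPKM in WT AntNPC and 239 to 325 in those labelled EED-/-, and the neural progenitor sum from 227 to 402 and 91.9 to 117. Otx2 was the largest part of the neural progenitor sum in WT, at 134 to 208 FPKM against 17.6 to 37.6 in those labelled EED-/-. Hes5 and Hesx1 were also lower in every library labelled EED-/- than in WT. Sox1, Pax6, Nes, Six3 and Lhx2 overlapped between genotypes. The part of these marker differences in the members' values was not tested.

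Replicate 1 of WT AntNPC, which is among the libraries behind the choice of the set, stood apart in the p53 targets. In it 23 of 31 members exceeded all of replicates 2 to 4, which 47.2% of all genes did, and 19 exceeded their mean by more than 1.5-fold (12.9% of all genes). Plk2, a polo-like kinase, was 3.75-fold higher in it than the mean of replicates 2 to 4. Phlda3 was 2.67-fold higher and Cdkn1a 2.53-fold, while Trp53 stood at 0.963 of that mean. In replicate 1 of AntNPC labelled EED-/-, 14 members exceeded the other 3 (44.4% of all genes) and 11 lay below them (36.8% of all genes). In it 5 passed 1.5-fold (11% of all genes), among them Cdkn1a (2.15-fold) and Ddit4 (2.10-fold). Both replicates 1 have low FPKM sums, and the part of that in these values was not tested. With replicates 2 to 4 alone the members' median genotype difference in AntNPC was -0.59, with 24 of 31 lower (45.0% of all genes). With replicate 1 alone it was -1.01, with 26 lower (44.9% of all genes). These AntNPC values took part in the choice of the set, so the counts and medians are a description and support nothing.

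**Figure D4:**
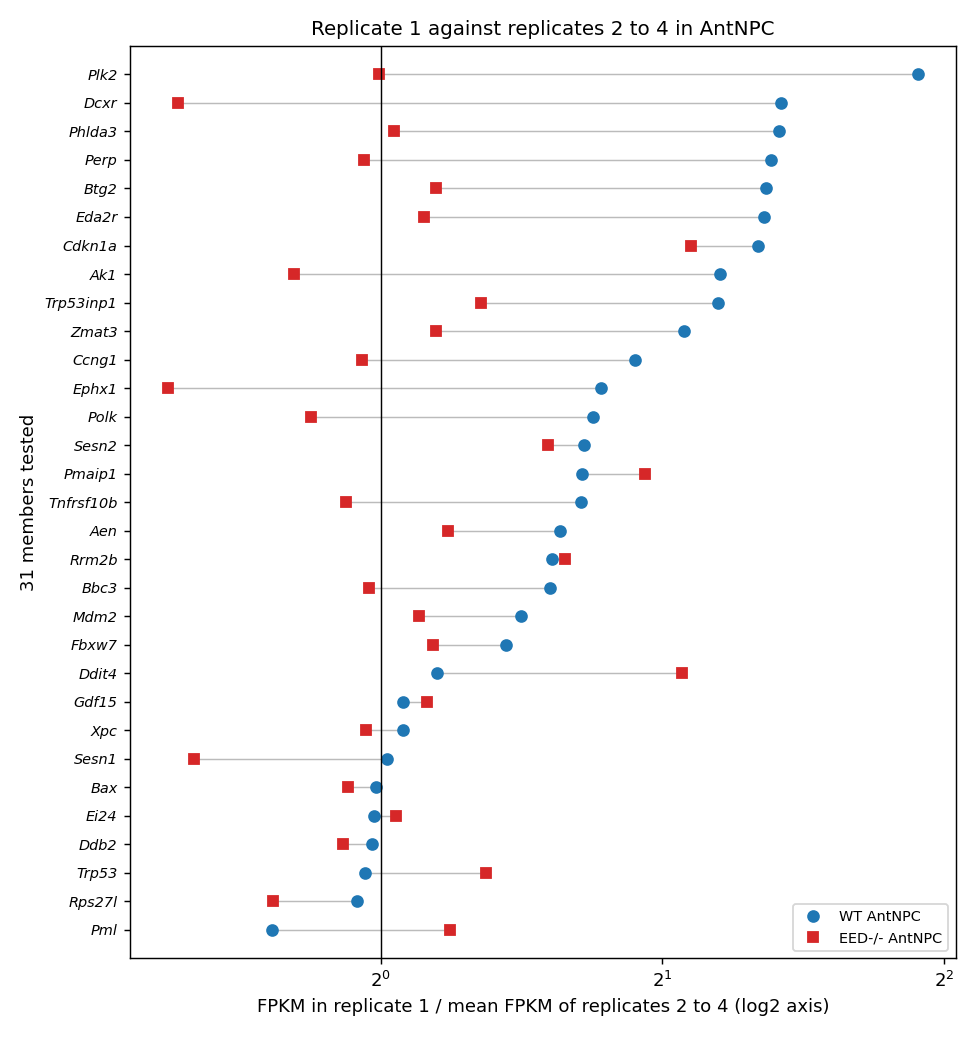
FPKM of AntNPC replicate 1 divided by the mean of replicates 2 to 4 (log2 axis) for 31 members, in WT (circles) and in those labelled EED-/- (squares). In WT 23 members lie above all of replicates 2 to 4, led by Plk2 at 3.75, whereas in the libraries labelled EED-/- the ratios fall on both sides of 1.

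Regulators of p53 were taken as a list. Like the lists that follow, it was chosen with earlier results of these data known. The AntNPC values of these lists come from the comparison behind the choice of the set and are a description. Of 37 named regulators and modifiers 32 were tested, and in mESC 3 rose and 1 fell in the line labelled EED-/- (20.0% and 2.73% of all genes), with a median log2 change of 0.18 (0.29 for all genes). Cdkn2a, the locus of ARF, rose from 18.5 ± 2.15 to 90.0 ± 28.7 FPKM (SD, n = 2; log2 change 2.19 ± 0.29; limma, adjusted p = 0.000375). In AntNPC it rose from 1.05 ± 0.418 to 85.7 ± 16.8 FPKM (SD, n = 4; 5.40 ± 0.21; limma, adjusted p = 1.2e-07). Its FPKM does not separate ARF from INK4A. Hipk2, a kinase of p53, rose in mESC (0.82 ± 0.19; limma, adjusted p = 0.00991), and Trp73, a p53 relative, fell (-1.52 ± 0.44; limma, adjusted p = 0.0293). In AntNPC 2 rose and 3 fell (18.3% and 7.75% of all genes): Twist1, a repressor of p53 function, rose by 2.26 ± 0.32 (limma, adjusted p = 0.000317), and Atm, the damage kinase upstream of p53, fell by 0.87 ± 0.18 (limma, adjusted p = 0.00373), as did Ppm1d, a phosphatase induced by p53, by 0.62 ± 0.19 (limma, adjusted p = 0.0345).

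Of 40 further p53 targets taken as a list, 33 were tested. In mESC 5 rose and 5 fell, against 20.0% and 2.73% of all genes, and the median was -0.06 (0.29 for all genes). Dram1, an autophagy gene, rose from 0.173 ± 0.0903 to 3.07 ± 0.381 FPKM (SD, n = 2; 1.79 ± 0.14; limma, adjusted p = 1.2e-05). Psrc1, a spindle protein, fell from 150 ± 42.8 to 32.8 ± 4.0 (-2.14 ± 0.21; limma, adjusted p = 5.14e-05) and Trp53i11 from 34.3 ± 15.8 to 13.7 ± 3.20 (-1.20 ± 0.31; adjusted p = 0.0178). In AntNPC 8 rose and 12 fell, against 18.3% and 7.75% of all genes, and the median was -0.21 (0.05 for all genes). Lower p53 targets in this same comparison led to the choice of the set, so these counts are a description and support nothing. Tgfa, a growth factor, rose by 1.72 ± 0.12 (limma, adjusted p = 3.33e-06), while Sulf2, a sulfatase, fell by 1.20 ± 0.18 (limma, adjusted p = 0.0006) and Trp53i11 fell by 1.14 ± 0.22 (adjusted p = 0.00273).

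Genes downstream of p21 were the next list. All 28 cell cycle genes repressed through p21 and the DREAM complex were tested, and 3 rose and 1 fell in mESC labelled EED-/-, against 20.0% and 2.73% of all genes (median 0.07, and 0.29 for all genes). Ccna2, cyclin A2, rose from 80.4 ± 12.9 to 135 ± 15.0 FPKM (SD, n = 2; 0.74 ± 0.17; limma, adjusted p = 0.00859), as did Mybl2, a DREAM target transcription factor, while Cdc25a, a CDK phosphatase, fell (-0.58 ± 0.17; limma, adjusted p = 0.0284). In AntNPC 1 rose, again Ccna2 (0.78 ± 0.12; limma, adjusted p = 0.000572), and 2 fell, E2f2 and Cdc25a, against 18.3% and 7.75% of all genes. Of 21 tested members of the BCL2 family and caspases, 3 rose and 0 fell in mESC (20.0% and 2.73% of all genes): Bid, Bak1 and Cycs, with Bid at 0.87 ± 0.21 (limma, adjusted p = 0.0128). In AntNPC 7 rose and 1 fell, against 18.3% and 7.75% of all genes; Bak1 rose (0.50 ± 0.11; limma, adjusted p = 0.00579), and Casp8 fell by 0.48 ± 0.14 (limma, adjusted p = 0.0245).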

How the data were processed

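The authors deposited 1 table of genes with 12 columns of single libraries, taken as FPKM since the submitters' processing notes name TopHat2 and Cufflinks with GRCm38 (mm10). The sources used here give no versions, annotation or strand, and no unit stands in the header; the values are fractional and sum differently between libraries. The authors' deposited mean read count of each AntNPC group, a signal scaled by the authors, was used to check directions.

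Genes reaching 1 FPKM in 2 or more libraries entered limma-trend (limma 3.58.1 in R 4.3.3) on log2(FPKM + 1) in 1 model of 4 group means over 12 libraries, with Benjamini-Hochberg adjustment over all 13678 genes in each of 5 comparisons, two-sided, threshold 0.05. A log2 change on this scale understates the change of low genes. "Rose" and "fell" mean past that threshold, and a gene set's count is read against the share of all genes called. Same-numbered AntNPC libraries deviated together (correlations 0.56, 0.32, 0.42 and 0.33), though libraries 2 to 4 of unlike number did too (0.33 to 0.40), so the numbers mainly set replicate 1 apart; the blocked counts are in the closing section, and the pair of mESC numbers correlated at -0.67.

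The members and gene lists were chosen with earlier results of these data known. All 32 members are named, Eed, and per list and comparison up to 2 genes a direction by smallest adjusted p; genes within 100 kb of Trp53 were also named, the others there being given as a count. Cycs was named after its values were seen, and some genes that the rule takes are not reported here. Alternatives were a pseudocount of 0.1, no filter, quantile normalization, median-of-ratios scaling, a replicate block, only the libraries compared, AntNPC replicates 2 to 4 and each library left out. Added after seeing the data were a block with mESC numbers crossed and the pairing of libraries by FPKM sum. The range searched for the step between low FPKM values was also narrowed after its first result. Depth per library is known only from that estimate, so no counting interval is given. Gene positions are from GENCODE M21 (GRCm38), and 21149 of 21253 genes matched. Bax, Fbxw7, Ei24, Ddb2, Polk, Rrm2b and Sesn2 overlap another annotated gene and are uncertain in that respect.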

Additional observations from a re-analysis of the deposited data

Results flagged for a closer look

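In groups of 4 libraries, 22 of 62 member and group combinations looked at (35.5%) held a library far from the other 3, past Dixon's critical ratio. Chance gives about 1 in 20 for a single combination. Members of 1 library are not independent, and the rate over all genes is not given here, so no excess is read. Of the 22, 20 were in replicate 1. In WT AntNPC replicate 1 the high values, in FPKM, were Mdm2 45.3, Cdkn1a 49.6, Ccng1 123, Btg2 50.2, Plk2 13.6, Zmat3 41.7, Phlda3 55 and Trp53inp1 67.3 among feedback and growth control genes. Among apoptosis, stress and metabolism genes they were Bbc3 33.3, Perp 8.26, Aen 111, Tnfrsf10b 21.9, Eda2r 28.0, Sesn2 51.0, Dcxr 49.4 and Ak1 40.4. In replicate 1 of AntNPC labelled EED-/- they were Cdkn1a 6.59, Btg2 17.3, Trp53inp1 9.72 and Pmaip1 46.6. The remaining 2 were low: Phlda3 at 5.15 in replicate 2 of AntNPC labelled EED-/- and Sesn1 at 11.2 in WT AntNPC replicate 3. The genotype effect differed between cell types, as AntNPC minus mESC on the log2 scale, for Pml (-0.81), Bbc3 (1.13), Gdf15 (1.68) and Ephx1 (1.99), by the interaction term of limma at an adjusted p under 0.05; this term includes the AntNPC comparison from which the members were chosen, so the 4 values are a description and support nothing.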

How the results depend on the processing

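In mESC the median log2 change of all genes was 0.29 as deposited and -0.05 under both quantile normalization and median-of-ratios scaling. Counts of members that fell and rose in mESC, 9 and 1, became 16 and 0 with quantile normalization, 15 and 0 with median-of-ratios scaling, and 0 and 0 on the mESC libraries alone. With a replicate block they were 8 and 0, Mdm2, Dcxr and Xpc no longer passing, and with mESC numbers crossed 10 and 1. Leaving out 1 library gave 5 to 16 falls and 1 to 3 rises; 16 fell without WT mESC replicate 2 and 5 without EED-/- mESC replicate 2. In AntNPC 13 and 2 became 20 and 4 on those libraries alone and 11 and 2 with the replicate block, in which Pml and Trp53inp1 no longer passed; leaving out 1 library gave 11 to 19 and 1 to 5. For WT differentiation, 8 falls became 4 on its libraries alone, and 2 rises became 0 there, with either scaling and with the replicate block, and 1 with AntNPC replicates 2 to 4; leaving out 1 library gave 5 to 14 falls and 0 to 10 rises. For differentiation of the line labelled EED-/-, 5 falls became 8 with quantile normalization and 10 on its libraries alone, and 1 rise became 2, 3 and, with the replicate block, 0; leaving out 1 library gave 2 to 10 and 0 to 4. In the difference of genotype effects, the 1 negative value past the threshold, of Pml, became 0 under both scalings and the 3 positive ones 1 with the replicate block, in which Cdkn1a stood in place of Pml; leaving out 1 library gave 0 to 3 negative and 0 to 9 positive. In WT differentiation Eda2r turned from -0.05 to 1.38 without WT mESC replicate 1 (limma, adjusted p = 0.0206) and was -1.48 without WT mESC replicate 2, and Polk turned from 0.27 to -0.99 without WT mESC replicate 2 (limma, adjusted p = 0.0222) and was 1.53 without WT mESC replicate 1; the cause of these changes was not tested. With 1 mESC library left, that library is assumed to vary like the other groups. On the mESC libraries alone limma called 0 of all genes higher and 1 lower, and 1449 at an unadjusted p under 0.05.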
